A study of Mus musculus with 6 samples.

Results

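The 9 genes described here make the pyrimidine building blocks of DNA in 6 mouse leukaemias: Cad, Dhodh and Umps of uridine monophosphate (UMP) synthesis, Rrm1 and Rrm2 of ribonucleotide reductase, Dut and Tyms of the thymidylate step, and the salvage kinases Tk1 and Dck. They were chosen by name, and all 9 of the 9 were among the 18193 genes measured. Each gene was read from the probe set that the array platform annotates to that 1 symbol and that had the highest mean over the 6 arrays.

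The samples were C57BL/6 leukaemias induced with N-myc in the retroviral vector pMXs-IG, and both groups were homozygous for the conditional gene-trap allele of Cdh1. Donors were Mx1-Cre(-)/Cdh1f/f for the Cdh1-intact group and Mx1-Cre(+)/Cdh1f/f for the Cdh1-deficient group, were littermates, and received pIpC, which switches on the interferon-driven Mx1 promoter, at 7 to 8 weeks of age. Their marrow mononuclear cells were taken 4 weeks after the last pIpC dose and 2 days after 150 mg/kg of 5-fluorouracil (5-FU), a drug that itself blocks thymidylate synthase. RNA came from sorted GFP-positive marrow cells of moribund mice, 3 in each group with 1 array per mouse, and the comparison asks how expression differed in leukaemia cells without Cdh1. What the study calls Cdh1 is encoded by Fzr1 and is a coactivator of the ubiquitin ligase APC/C. The Mx1 promoter responds to interferon in many cell types besides B cells, and where the deletion took place was not measured here.

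Cells build UMP from glutamine, bicarbonate and aspartate in reactions run by the multifunctional protein CAD, by the mitochondrial enzyme DHODH and by UMPS. Ribonucleotide reductase, made of the large subunit RRM1 and the small subunit RRM2, converts ribonucleotides to deoxyribonucleotides, DUT turns dUTP into dUMP, and thymidylate synthase (TYMS) methylates dUMP to dTMP. TK1 and DCK instead phosphorylate thymidine and deoxycytidine taken up from outside. Most of these genes are transcribed most strongly around S phase, and the TK1 and RRM2 proteins are known substrates of APC/C with Cdh1. Arrays read transcripts and carry no information on the degradation of these proteins.

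Values are log2 levels, in which a difference of 1 is a doubling, and levels of different genes are not compared because probe sets differ in response. The array medians lay between 5.07 and 5.13. Fzr1 lay at 8.93, 8.04 and 8.92 in Cdh1-intact mice 1 to 3 and at 8.10, 7.73 and 8.22 in the Cdh1-deficient mice, with an overlap at Cdh1-intact array 2. That array also differed in lineage markers: the mean of 9 measured B-cell markers was 4.67 there and 7.83 to 8.75 elsewhere. Its mean of 11 T and NK markers was 8.57, with 4.94 to 6.38 elsewhere. Cdh1-intact array 1 stood apart in other markers, with the mean of 8 macrophage and monocyte markers at 7.61 against 4.77 to 6.52 elsewhere and that of 6 erythroid markers at 7.61 against 5.94 to 6.72. In bulk samples fewer cells of a type and less RNA per cell cannot be told apart.

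Cad, the multifunctional enzyme that starts UMP synthesis, had the largest difference among the 9 genes. Its level was 10.65, 10.71 and 11.16 in Cdh1-intact mice 1, 2 and 3, and 11.38, 11.37 and 11.61 in Cdh1-deficient mice 1, 2 and 3. All 3 Cdh1-deficient arrays lay above all 3 Cdh1-intact arrays, and Cdh1-intact array 3 came closest. The log2 difference, Cdh1-deficient minus Cdh1-intact, was 0.61 (SE 0.17), from 10.84 ± 0.28 to 11.45 ± 0.14 (SD, n = 3 each). This was short of the limma threshold (adjusted p = 0.849 over all genes, unadjusted p = 0.0119). Leaving out each array in turn gave 0.52 to 0.77. A second Cad probe set read 9.75, 9.82 and 10.25 against 10.45, 10.24 and 10.55, where Cdh1-deficient array 2 fell just below Cdh1-intact array 3, for a difference of 0.47. The remaining probe set, at 4.92 to 5.28 on all arrays, differed by −0.10, and the mean of all 3 differed by 0.33.

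**Figure D1:**
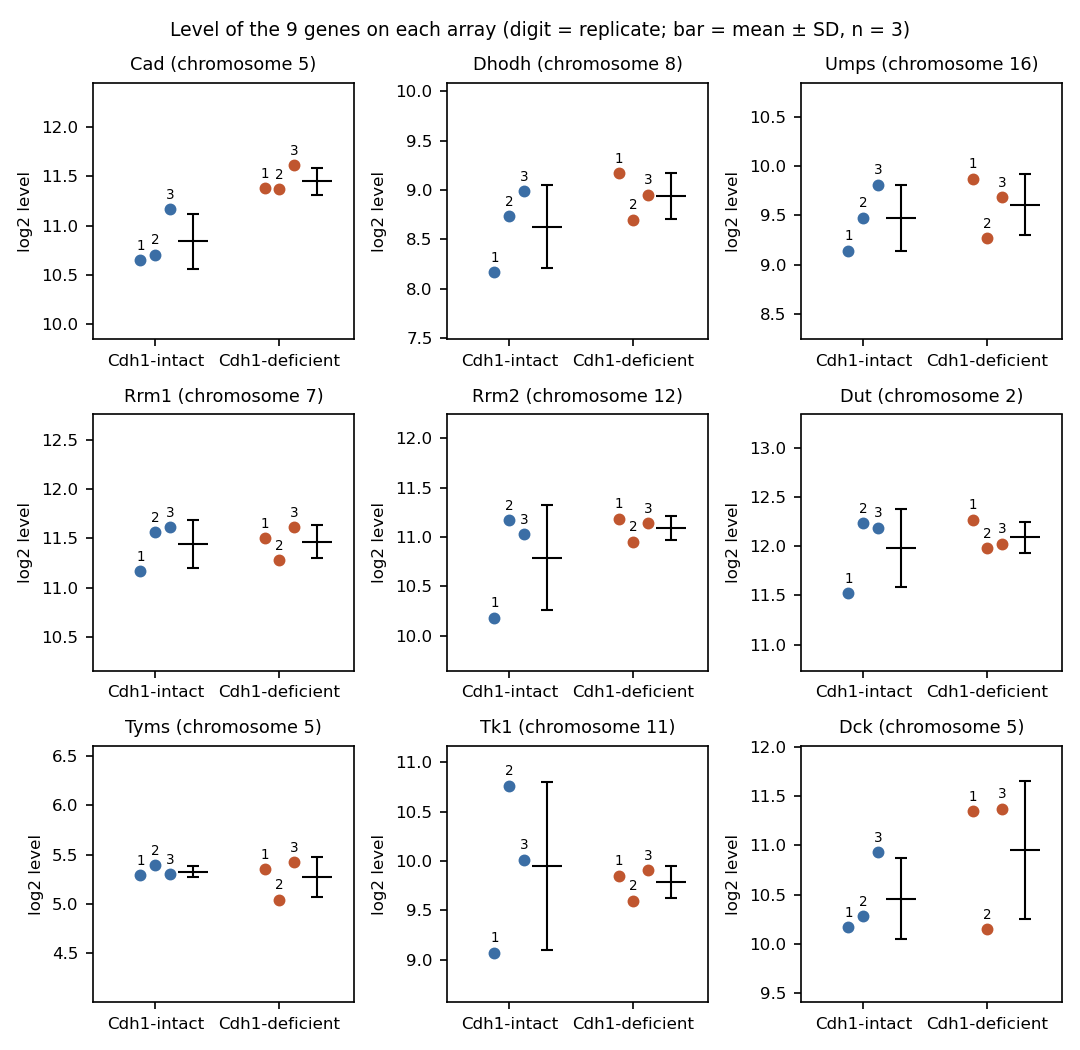
Log2 level (vertical axis, same span in every panel) of each gene on the Cdh1-intact and Cdh1-deficient arrays, with the replicate digit at each point and the mean ± SD (n = 3) beside it. Cad is the gene whose groups do not overlap, while Cdh1-intact array 1 is the lowest point for 7 of the 9 genes.

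Over the 9 genes, 0 passed an adjusted p of 0.05 in limma, as did 0 of all 18193 genes (0.0%). At an unadjusted p under 0.05 there was 1 gene, Cad, where 5.5% of all genes were. The groups did not overlap for 1 of 9 genes in the upward direction and for 0 of 9 in the downward direction, where 6.65% and 5.09% of all genes did so. These shares leave the 9 genes close to the background. Differences were above 0 for 7 of 9 genes, beside 9257 of all 18193 and 5688 of the 9097 genes at or above the median level. The median over the 9 genes was 0.13, beside 0.0034 over all genes and 0.09 over those 9097. The typical spread within groups was 0.32 for the 9 genes (median SD) and 0.27 for genes at or above the median level.

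The promoters of the 2 genes with the largest differences, Cad and Dck, and of the 2 that were lowest against their own mean on Cdh1-intact array 1, Tk1 and Rrm2, are shown for what they share in sequence. They run from 250 bases before to 50 after the RefSeq start, on build GRCm38.p6, 5′ to 3′ on the gene's strand. Capitals mark GC boxes (GGGCGG or its complement) and CCAAT boxes (CCAAT or its complement). Cad spans chr5:31054530-31054829 (plus strand), Dck chr5:88764763-88765062 (plus strand), Rrm2 chr12:24708004-24708303 (plus strand) and Tk1 chr11:117825965-117826264 (minus strand).
Cad: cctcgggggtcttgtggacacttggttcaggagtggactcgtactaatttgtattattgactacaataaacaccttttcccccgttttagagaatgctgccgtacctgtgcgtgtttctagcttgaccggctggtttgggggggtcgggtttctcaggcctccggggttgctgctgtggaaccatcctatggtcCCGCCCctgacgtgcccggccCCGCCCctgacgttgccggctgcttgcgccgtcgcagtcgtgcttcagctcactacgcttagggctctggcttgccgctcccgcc
Dck: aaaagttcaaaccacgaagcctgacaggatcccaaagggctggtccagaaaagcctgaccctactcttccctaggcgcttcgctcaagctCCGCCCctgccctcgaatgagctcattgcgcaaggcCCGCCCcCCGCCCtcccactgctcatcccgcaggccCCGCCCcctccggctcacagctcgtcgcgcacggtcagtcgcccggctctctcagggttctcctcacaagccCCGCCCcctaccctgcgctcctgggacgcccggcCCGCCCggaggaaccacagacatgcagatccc
Rrm2: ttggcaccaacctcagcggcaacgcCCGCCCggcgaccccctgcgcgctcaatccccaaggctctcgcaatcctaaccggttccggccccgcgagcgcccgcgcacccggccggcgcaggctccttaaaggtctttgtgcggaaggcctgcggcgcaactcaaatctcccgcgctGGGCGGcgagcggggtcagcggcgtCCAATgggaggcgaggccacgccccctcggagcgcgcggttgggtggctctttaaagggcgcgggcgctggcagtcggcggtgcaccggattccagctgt
Tk1: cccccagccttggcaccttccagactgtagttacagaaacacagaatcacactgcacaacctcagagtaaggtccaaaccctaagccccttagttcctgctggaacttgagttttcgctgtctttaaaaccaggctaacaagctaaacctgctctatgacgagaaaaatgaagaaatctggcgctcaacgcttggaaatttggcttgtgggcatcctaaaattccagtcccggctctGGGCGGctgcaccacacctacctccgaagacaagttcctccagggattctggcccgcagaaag

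A promoter was listed for 8 of the 9 genes, all but Dhodh. A GC box, which factors of the Sp family bind, was in 7 of the 8 windows, all but Rrm1, beside 35.66% of all 32851 promoters in the table. Dck held 6 of them, Cad and Rrm2 2 each, and Tk1 1. A CCAAT box was in the windows of Rrm1 and Rrm2, 2 of 8 beside 37.41%. The E-box CACGTG, which MYC proteins bind, was in the window of Tyms, 1 of 8 beside 7.15%, on both strands since it reads the same. For E2F, only the forms TTTCGCGC and TTTGGCGC were searched, on both strands, and either was in 0 of 8 beside 0.81%. Their shorter cores TTCGCGC and TTGGCGC, which these full forms contain, were in 0 of 8 beside 3.89%. Other forms of the E2F site were not searched, so these counts do not show that the windows lack one. The form TTCCCGC, for example, is in the Rrm1 window, and its share over all promoters was not counted. Such matches describe letters in a window, and sites elsewhere were not searched. The table holds promoters of all kinds of genes, so the shares are not matched for base composition.

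The other enzymes of UMP synthesis did not separate the groups. Dhodh, which oxidises dihydroorotate at the inner mitochondrial membrane, lay at 8.17, 8.74 and 8.99 in the Cdh1-intact mice and at 9.17, 8.70 and 8.95 in the Cdh1-deficient mice. Cdh1-intact array 1 was low and the other 5 arrays lay within 8.70 to 9.17. The difference of 0.31 (SE 0.24, limma adjusted p = 0.849) became 0.08 once Cdh1-intact array 1 was left out and 0.49 without Cdh1-intact array 3. Umps, which makes UMP from orotate, lay at 9.14, 9.48 and 9.81 against 9.87, 9.27 and 9.69. Its groups interleaved, with a difference of 0.13 (SE 0.23) that turned to −0.04 once Cdh1-intact array 1 was left out and was 0.30 without Cdh1-intact array 3 or Cdh1-deficient array 2. All 4 Umps probe sets and both of Dhodh had differences above 0, from 0.13 to 0.30 and from 0.31 to 0.40. For Umps, a probe set with 0.30 was near the floor, at 2.80 to 3.25 on all arrays, and another with 0.30 had a mean level of 9.03.

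The ribonucleotide reductase subunits overlapped between the groups as well. Rrm1, the subunit with the active site, lay at 11.17, 11.56 and 11.61 in the Cdh1-intact mice and at 11.50, 11.28 and 11.61 in the Cdh1-deficient mice. Its difference was 0.02 (SE 0.16, limma adjusted p = 0.987), or −0.25 on another well-expressed probe set (9.38 ± 0.21 against 9.13 ± 0.29, SD, n = 3 each). Rrm2, the small subunit that holds the tyrosyl radical and limits activity outside S phase, lay at 10.18, 11.17 and 11.02 against 11.18, 10.95 and 11.14. Cdh1-intact array 1 was 0.77 below the next lowest array, and the other 5 arrays lay within 10.95 to 11.18. The Rrm2 difference of 0.30 (SE 0.27, limma adjusted p = 0.856) was −0.0038 (SE 0.13) without Cdh1-intact array 1. The 3 Rrm2 probe sets differed by 0.10 to 0.36, and Cdh1-intact array 1 was the lowest on each.

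Rrm2b, the alternative small subunit that p53 induces, did not follow Rrm2. It lay at 7.77, 7.11 and 8.67 in the Cdh1-intact mice and at 8.59, 8.37 and 8.46 in the Cdh1-deficient mice, with the lowest value on Cdh1-intact array 2 and a difference of 0.62 (SE 0.39, limma adjusted p = 0.849), or 0.25 without that array. Ccnf, which encodes the cyclin that targets RRM2 for degradation in G2, lay at 7.18, 7.24 and 8.51 against 8.62, 8.09 and 8.84. Its groups overlapped at Cdh1-intact array 3, with a difference of 0.87 (SE 0.41, limma adjusted p = 0.849).

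Dut and Tyms supply thymidylate, and neither separated the groups. Dut, which keeps dUTP out of DNA, lay at 11.52, 12.23 and 12.19 in the Cdh1-intact mice and at 12.27, 11.98 and 12.02 in the Cdh1-deficient mice. Here too Cdh1-intact array 1 was lowest, and the difference of 0.11 (SE 0.22, limma adjusted p = 0.933) became −0.12 without it. Tyms, the target of 5-FU, lay at 5.29, 5.39 and 5.30 against 5.35, 5.04 and 5.43, a difference of −0.05 (SE 0.13, limma adjusted p = 0.945). This level was below the median gene level of 5.97, and the other 3 Tyms probe sets lay lower still, at 2.99 to 4.48. A probe set annotated to Tyms and its pseudogene copy Tyms-ps together, which the selection rule leaves out, lay at 9.39, 10.27 and 9.88 against 10.33, 9.26 and 10.32. Its difference was 0.12, with the lowest values on Cdh1-deficient array 2 and Cdh1-intact array 1. Signal of the gene and of its copy cannot be told apart there, so the level of Tyms itself is uncertain in these data.

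The salvage kinases had the widest spreads of the 9 genes. Tk1, which phosphorylates thymidine, lay at 9.07, 10.76 and 10.01 in the Cdh1-intact mice and at 9.85, 9.60 and 9.90 in the Cdh1-deficient mice. The Cdh1-intact group held both the lowest and the highest array, and the difference was −0.16 (SE 0.42, limma adjusted p = 0.948). It was 0.24 without Cdh1-intact array 2, the array with the highest mean of T and NK markers. Without Cdh1-intact array 1 it was −0.60 (SE 0.26, limma adjusted p = 0.787), and Cdh1-intact arrays 2 and 3 lay above all Cdh1-deficient ones. Those arrays also had the highest means of T and NK markers. The difference also changed size without Cdh1-deficient array 2, to −0.07. The part of the lineage markers in these values was not tested.

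Dck, which phosphorylates deoxycytidine and the drug cytarabine, lay at 10.17, 10.28 and 10.93 against 11.35, 10.15 and 11.37. On this probe set Cdh1-deficient arrays 1 and 3 were the highest of the 6 and Cdh1-deficient array 2 the lowest. The difference was 0.49 (SE 0.39, limma adjusted p = 0.849). It became 0.90 (SE 0.26, limma adjusted p = 0.974) without Cdh1-deficient array 2, with the groups apart, 0.29 without Cdh1-deficient array 3 and 0.30 without Cdh1-deficient array 1. The 3 Dck probe sets differed by 0.49 to 0.52, but they ordered the arrays differently. On the second, Cdh1-deficient array 2 lay at 10.07, above the first pair of Cdh1-intact arrays (9.61 and 9.47). The remaining probe set put it at 6.30, above the same pair (6.21 and 6.22). On Cdh1-deficient array 2 all 11 measured neutrophil markers had their highest value, with a list mean of 11.13 there and 5.97 to 9.92 elsewhere. The part of this in the Dck level was not tested.

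**Figure D2:**
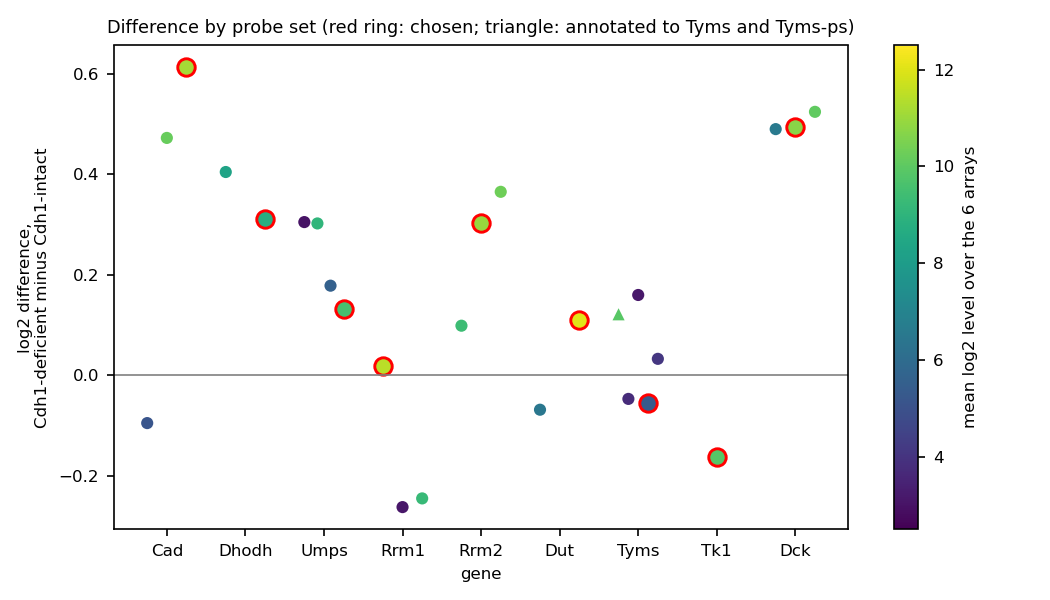
Log2 difference (Cdh1-deficient minus Cdh1-intact) of every probe set of the 9 genes, coloured by its mean log2 level over the 6 arrays. The chosen probe sets have a red ring, and the triangle is the probe set annotated to Tyms and Tyms-ps together; 18 of the 25 probe sets with 1 symbol lie above 0.

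Most of the 9 genes shared the same low arrays. Cdh1-intact array 1 held the lowest value of 7 of 9 genes, all but Tyms and Dck, where 28.8% of the 9097 genes at or above the median level had their lowest value. Averaged over the 9 genes, each set to its own mean, the arrays lay at −0.49, 0.06 and 0.14 for Cdh1-intact and at 0.24, −0.16 and 0.22 for Cdh1-deficient. Without Cdh1-intact array 1 the median difference over the 9 genes was −0.04, with 3 of 9 above 0. Within the Cdh1-deficient group, array 2 held the lowest value for all 9 genes, where 41.2% of genes at or above the median level did so. Its values lay a median of 0.28 below the mean of the other Cdh1-deficient arrays.

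A list of 39 measured S-phase genes (helicase, polymerase, clamp and other replication factors) showed the same low array. Cdh1-intact array 1 was lowest for 32 of the 39, and the list lay at −0.43, 0.10 and 0.17 in the Cdh1-intact mice and at 0.13, −0.07 and 0.10 in the Cdh1-deficient mice. The group difference of the list had a median of 0.10 with 26 of 39 above 0, beside 5688 of the 9097 genes at or above the median level. Without Cdh1-intact array 1 the median of the list was −0.12, with 10 of 39 above 0. Top2a, a topoisomerase of dividing cells, was named here after its values were seen: it read 10.76 on Cdh1-intact array 1 and 11.43 or more elsewhere. Mki67 of the same list was lowest there by less, at 11.43 against 11.58 or more elsewhere, and was highest on Cdh1-deficient array 2 (12.51). On Cdh1-intact array 1, 6 of 8 macrophage and monocyte markers were at their highest, including C1qa at 7.63 against 4.50 to 5.33 elsewhere. Of the 6 erythroid markers 3 were at their highest there, among them Slc4a1 at 9.70 against 5.10 to 8.40 elsewhere. Tfrc had its lowest value there (11.43 against 11.54 to 11.86 elsewhere), Epor was highest on Cdh1-intact array 2, and Hba-a1 was near the floor on all arrays (3.28 to 3.61). The Y-linked gene Eif2s3y was at 9.60 on Cdh1-intact array 1 against 2.68 to 3.22 elsewhere, and the X-linked gene Xist at 6.75 against 12.58 to 13.17. The part of these in the low values was not tested.

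**Figure D3:**
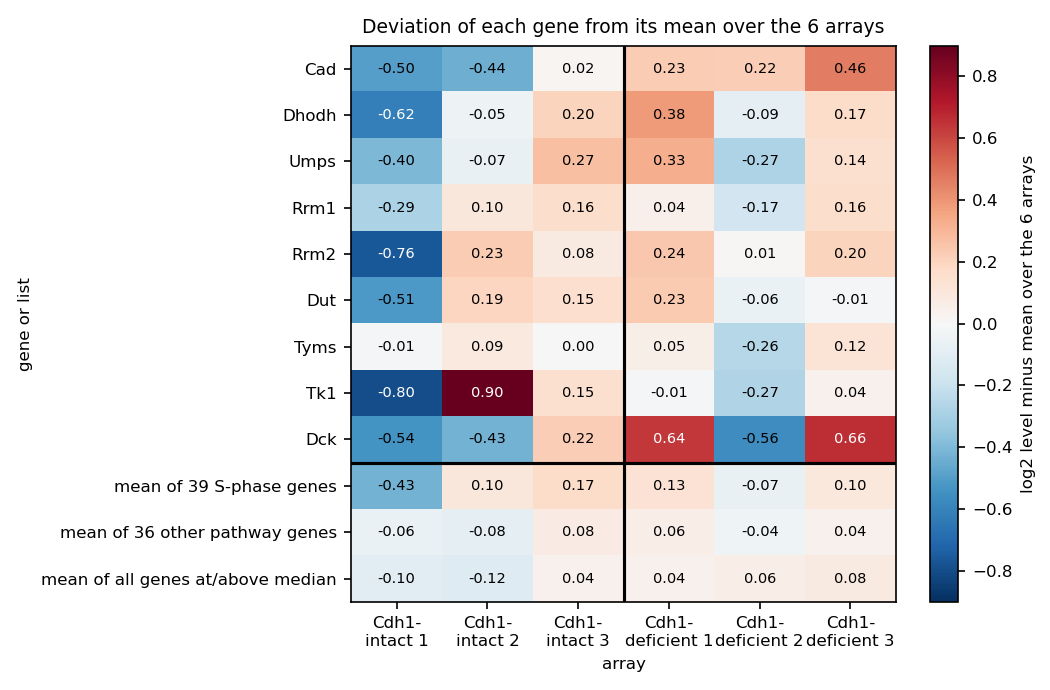
Log2 level minus the mean over the 6 arrays, for the 9 genes (above the line) and for the mean of 3 gene lists (below it), with arrays in columns and the value printed in each cell. The column of Cdh1-intact array 1 is below 0 for all 9 genes and at −0.43 for the S-phase genes, beside −0.06 for the other pathway genes.

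**Figure D4:**
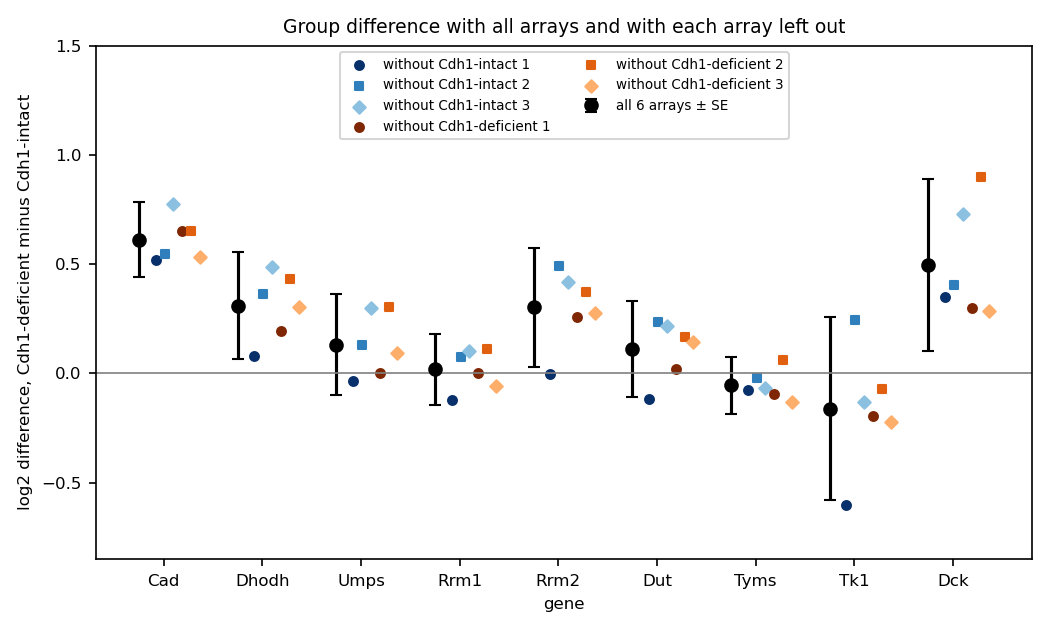
Log2 difference of each gene with all 6 arrays (black, ± SE from limma) and with each array left out in turn (coloured points). Cad stays between 0.52 and 0.77, while Umps, Rrm1, Rrm2, Dut, Tyms and Tk1 cross 0.

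Set against the S-phase list on the same array, Cad kept its groups apart on its chosen probe set. Cad minus the list mean was −0.07, −0.54 and −0.15 in the Cdh1-intact mice and 0.10, 0.29 and 0.37 in the Cdh1-deficient mice, a difference of 0.50. The other 8 genes overlapped on this scale: Dut differed by 0.0016, Umps by 0.02 and Rrm1 by −0.09, and Dck had the next largest value at 0.39. This relative scale was chosen after the data were seen and has no test.

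Cad, Dck and Tyms lie on chromosome 5, whose genes were higher as a whole in the Cdh1-deficient arrays. Of 607 chromosome 5 genes at or above the median level, 528 (87.0%) had a difference above 0, with a median of 0.36, beside 60.8% and 0.07 for 8490 genes elsewhere. The 3 Cdh1-deficient arrays lay above the Cdh1-intact arrays for 39.5% of these chromosome 5 genes and for 7.76% of the others. Cad ranked 131 and Dck 204 of the 607 from the highest difference. All 20 nearest such genes around Cad, 10 on each side, had differences above 0, with a median of 0.37, and 11 of them had groups apart. Around Dck the count was 16 of 20 (median 0.25), with groups apart upward for 6 and downward for 2. Around Tyms it was 20 of 20 (median 0.34), with 8 apart upward, while the low Tyms probe set itself stayed at −0.05. Tyms and Cad lie close together on chromosome 5 (promoters from 30073576 and 31054530), so their neighbours can include the same genes. The 6 genes on other chromosomes had a median of 0.12, and their groups overlapped in every case.

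Relative to the mean of the chromosome 5 genes on the same array, Cad no longer separated the groups. It lay at −0.28, −0.13 and 0.08 in the Cdh1-intact mice and at 0.05, 0.07 and 0.22 in the Cdh1-deficient mice, a difference of 0.22. On this scale 2 other genes had all Cdh1-deficient arrays below the Cdh1-intact ones, Tyms with a difference of −0.45 and Rrm1 with −0.38, and the remaining 6 overlapped. The chromosome 5 mean itself was 0.39 higher in the Cdh1-deficient arrays, so a gene with no difference of its own turns negative here. Before this step Tyms differed by −0.05 and Rrm1 by 0.02, so their values here mostly reflect that mean. In the S-phase list the 4 genes of smallest p were Pole (0.61), Rfc2 (0.34), Rfc1 (0.49) and Slbp (0.36), which encode a polymerase, clamp loader subunits and the histone mRNA binding protein. These are log2 differences, all 4 lie on chromosome 5, and they were the 4 genes of that list whose groups did not overlap. For the 32 S-phase genes elsewhere the median was 0.03 and 0 were apart. The share of chromosome 5 in the Cad difference was not tested, and the labels give no copy number.

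**Figure D5:**
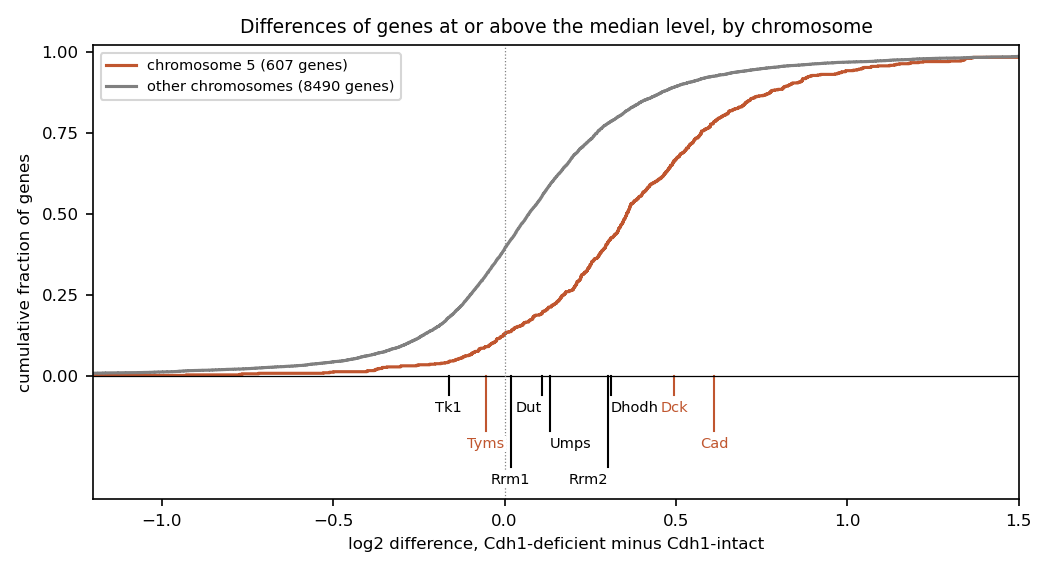
Cumulative fraction of genes at or above the median level by log2 difference (Cdh1-deficient minus Cdh1-intact), for 607 genes of chromosome 5 and 8490 of other chromosomes, with the 9 genes marked under the curves (orange: chromosome 5). Cad at 0.61 and Dck at 0.49 lie beyond the chromosome 5 median of 0.36.

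The wider pathway, read from 36 measured of 42 listed genes of pyrimidine, deoxynucleotide and nucleoside handling, showed no common direction. Differences were above 0 for 18 and below 0 for 18, with a median of −0.01, and 0 passed in limma. The unadjusted p was under 0.05 for 5 genes, beside the 5.5% of all genes. The groups did not overlap upward for 4 and downward for 3, beside 6.65% and 5.09% of all genes. Cdh1-intact array 1 was lowest for 7 of the 36, unlike its place among the 9 genes and the S-phase list, though the difference between lists was not tested.

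Transport genes were among those with the smallest p. Slc25a33, a mitochondrial pyrimidine nucleotide carrier, lay at 8.62, 8.34 and 8.36 in the Cdh1-intact mice and at 8.84, 9.06 and 9.10 in the Cdh1-deficient mice. All Cdh1-deficient arrays were higher, with a difference of 0.56 (SE 0.13, limma adjusted p = 0.849). The related carrier Slc25a36 had the opposite sign at −0.50 (SE 0.19), from 9.69 ± 0.24 to 9.19 ± 0.27 (SD, n = 3 each), with its groups apart. The plasma membrane nucleoside transporter Slc29a2 lay at 6.11, 5.68 and 5.48 against 6.31, 6.67 and 6.72, a difference of 0.81 (SE 0.21) with the groups apart. Its better known relative Slc29a1 differed by 0.11 (SE 0.20).

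Ctps, the synthase that makes CTP from UTP downstream of the UMP enzymes, lay at 10.82, 10.94 and 11.11 in the Cdh1-intact mice and at 11.28, 11.19 and 11.54 in the Cdh1-deficient mice. Its groups were apart by a narrow margin, and the difference was 0.38 (SE 0.14, limma adjusted p = 0.849). Nt5c, a nucleotidase that removes phosphate from deoxynucleotides, lay at 10.72, 10.69 and 10.36 against 10.11, 9.91 and 10.04. All its Cdh1-deficient arrays were lower, by −0.57 on average (SE 0.14, limma adjusted p = 0.849). The uridine kinase family gene Uckl1 differed by −0.47 (SE 0.22), or −0.25 without Cdh1-intact array 2, the uridine phosphorylase Upp1 by 0.48 (SE 0.24) and the purine nucleoside phosphorylase Pnp by −0.45 (SE 0.25).

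Close partners of the 9 genes overlapped, apart from Ctps and Samhd1. Dtymk, which phosphorylates the dTMP made by TYMS and TK1, lay at 11.26, 12.02 and 11.30 against 11.62, 11.43 and 11.65. Like Tk1 it was highest on Cdh1-intact array 2, and its difference was 0.04 (SE 0.23), with a range of −0.09 to 0.29 when each array was left out in turn. Samhd1, which hydrolyses deoxynucleoside triphosphates, read 7.13 on Cdh1-intact array 2 against 9.70 to 10.20 elsewhere, so that its difference of 1.19 had an SE of 0.74 and was 0.30 (SE 0.14) without that array. The mitochondrial kinase Tk2 differed by −0.15 (SE 0.16), the dCMP deaminase Dctd by 0.27 (SE 0.33) and the UMP/CMP kinase Cmpk1 by 0.04 (SE 0.20).

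Genes for transcription factors linked to this pathway did not pass the threshold either. E2f1 lay at 8.21, 8.66 and 8.42 in the Cdh1-intact mice and at 8.71, 8.60 and 8.82 in the Cdh1-deficient mice, with an overlap at Cdh1-intact array 2 and a difference of 0.28 (SE 0.15, limma adjusted p = 0.849). The E2f1 difference ranged from 0.17, when Cdh1-intact array 1 was left out, to 0.40, when Cdh1-intact array 2 was. Mycn, the transduced oncogene, lay at 13.41, 13.13 and 13.51 against 13.49, 13.68 and 13.70, a difference of 0.27 (SE 0.14), or 0.16 without Cdh1-intact array 2, which held the lowest value. Myc was near the floor on all arrays, at 3.78 to 4.35.

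The genes whose profile over the 6 arrays was most like the mean of the 9 were found among 9089 others at or above the median level. Closest was Rdh14, a retinol dehydrogenase family gene, with r = 0.998 (Spearman rho 1.0), followed by Qsox2 (r = 0.997), Tmub2 (0.997), Bbs2 (0.992) and Arv1 (0.990). Without Cdh1-intact array 1 and Cdh1-deficient array 2, the arrays farthest from the median of the profile, r was 0.850 to 0.998. These are the highest of many values over 6 arrays and are given as a description. Among the 9, Dhodh followed the mean of the other 8 most closely (r = 0.949) and Tyms least (0.438), and the closest pair was Rrm2 and Dut (r = 0.945).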

How the data were processed

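The file deposited by the authors gives RMA summaries as log2 levels (RMA is named in the submitters' processing notes, without a version) for 45101 probe sets on 6 arrays. RMA normalizes between arrays, so a change of total RNA per cell cannot be seen. Precision is limited by the number of arrays. The platform annotation, dated 2016, named the probe sets: 34945 had 1 symbol, 932 had several and were not used for genes, and the rest are unnamed here. Chromosomes and promoters came from RefSeq tables of GRCm38.p6 (34741 probe sets matched by gene identifier). No label names a build for the arrays.

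Groups and replicates came from the sample titles. The comparison used limma (version 3.58.1, R 4.3.3, lmFit, eBayes, no trend, no filter on level), two-sided, Benjamini-Hochberg over 18193 genes, threshold 0.05, and the fit was tested on simulated data. A permutation of 3 against 3 cannot go below p = 0.1 and was not used. The members and lists were chosen with earlier results of these data known. Named were the 9 genes, up to 8 pathway genes of smallest p with 8 fixed partners, up to 4 S-phase genes, 5 regulators, and 5 genes of like profile. Top2a and Mki67 were named in addition, after their values were seen. The comparisons with chromosome 5, gene neighbours and relative scales, and the promoter motifs, were chosen after the data were seen. Alternatives were 2 normalizations, 2 level filters, the mean of all probe sets, and probe sets named with the suffix _s, _x or _a left out. Others were trend and robust estimation, array weights, the replicate number as a block, and each array left out. Same-numbered arrays did not deviate together, so the numbers were not taken as pairs.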

Additional observations from a re-analysis of the deposited data

How the results depend on the processing

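The count of genes past the threshold was 0 under each of the 9 alternatives and in each of the 6 fits without 1 array (lowest 0, highest 0), with 442 to 1751 genes at an unadjusted p under 0.05. With the replicate block it was also 0, with 975 at an unadjusted p under 0.05. The deviations of same-numbered arrays correlated at −0.14, 0.01 and 0.04, and 1 of 6 arrays correlated best with its own number. Of 133 values of the 9 genes under alternatives, 123 kept their direction and 10 turned, none of them past the threshold. With the mean of all probe sets Rrm1 was at −0.16 and Tyms at 0.023. Without probe sets of suffix _s, _x or _a, Dut was at −0.069. Dut was then read from its other probe set, of mean level 6.48 against 12.03 for the chosen one. With 1 array left out the ranges were −0.037 to 0.30 for Umps, −0.12 to 0.11 for Rrm1, −0.0038 to 0.49 for Rrm2, −0.12 to 0.24 for Dut, −0.13 to 0.061 for Tyms and −0.60 to 0.24 for Tk1. The cause of the turns was not tested. Cad, Dhodh and Dck stayed above 0 in every setting that gave a value. The Cad difference was 0.33 with the mean of all probe sets. It was 0.47 without probe sets of suffix _s, _x or _a, since the chosen Cad probe set has the suffix _s. Dck had no probe set without such a suffix, and Tyms lay below the median level, so those settings gave no value. Values near the floor, such as those of the Tyms probe sets, limit what can be seen.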
